A study of Mus musculus with 12 samples.

Results

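The genes described here encode the enzymes that build purine, pyrimidine and deoxynucleotide pools: 34 genes, named by symbol, of the 24221 rows in the table that compared leukaemia cells with and without Riok2 deletion. All 34 were found in it by exact symbol and all 34 were tested. The cells were C57BL/6 mouse acute myeloid leukaemia cells driven by MLL-AF9, a fusion protein that arises by chromosome translocation. RNA was sequenced from 2 groups of cells whose Riok2 alleles are floxed (Riok2fl/fl): 3 samples received hydroxytamoxifen (OHT), which activates tamoxifen-dependent Cre recombinases, and 3 received its vehicle ethanol (EtOH), each for 72 h. RIOK2 is an atypical kinase needed for late steps in making the small ribosomal subunit. Not given in the sources used here were the Cre driver and the number of clones behind the line. MLL-AF9 cells given DMSO or 1 µM of a RIOK2 inhibitor were also profiled and are not analysed here. OHT without floxed alleles is not among the groups used, so an effect of OHT itself and an effect of the deletion cannot be told apart.

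Purine rings are assembled on phosphoribosyl pyrophosphate (PRPP) up to inosine monophosphate (IMP), which is then turned into AMP or GMP. Pyrimidine rings are made first and then joined to PRPP, giving UMP and from it CTP. Ribonucleotide reductase converts ribonucleotides to deoxynucleotides, thymidylate synthase makes the thymine nucleotide of DNA, and salvage kinases and phosphoribosyltransferases reuse nucleosides and bases. Proliferating blood cells and leukaemias draw on these routes for ribosomal RNA and DNA, several of the enzymes are targets of antileukaemic drugs, and MYC is a known activator of many of the genes.

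Promoter sequence was examined because genes of the pathway moved together, a search chosen with the falls already known, and because MYC and its partner MAX bind the E-box CACGTG, which reads the same on both strands. RefSeq promoters (build GRCm38.p6, 250 bases before to 50 bases after each annotated start) were found for 31 of the 34 genes. Of these, 6 held CACGTG (19.4%), against 8.09% of 27025 genes in the promoter table and 11.5% of the 10376 tested genes with a promoter. The 30 bases around each match are shown 5′ to 3′ on the strand of the gene, with the E-box in capitals. Nme1 has a match at an outer and at an inner RefSeq start.
Paics: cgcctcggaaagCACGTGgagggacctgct
Atic: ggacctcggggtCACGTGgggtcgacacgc
Impdh2: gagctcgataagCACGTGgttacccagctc
Tyms: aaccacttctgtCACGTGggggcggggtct
Dtymk: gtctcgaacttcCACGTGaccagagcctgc
Nme1, outer start: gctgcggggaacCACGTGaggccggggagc
Nme1, inner start: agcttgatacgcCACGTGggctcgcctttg

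The windows lie at chr5:76951087-76951116 (Paics, plus strand), chr1:71557137-71557166 (Atic, plus), chr9:108560314-108560343 (Impdh2, plus), chr5:30073669-30073698 (Tyms, minus), chr1:93802065-93802094 (Dtymk, minus), chr11:93968273-93968302 and chr11:93968037-93968066 (Nme1, minus). The first base of the motif stood 7 bases before the RefSeq start in Atic, 18 and 29 in Nme1, 61 in Tyms, 110 in Impdh2, 148 in Dtymk and 203 in Paics. GENCODE M21 starts Impdh2 at chr9:108560286 and Nme1 at chr11:93968521, so by that annotation the Impdh2 motif and both Nme1 motifs lie inside the gene and not before it. It starts Atic at chr1:71557150, so the Atic motif, at chr1:71557149-71557154, spans that start. In GENCODE M21 the Paics window lies in the 5′ untranslated part of the first exon of Ppat, its head-to-head neighbour on the minus strand, and the 2 gene models overlap by 272 bases. Annotated untranslated sequence also covers 30 of the 30 bases in the Impdh2 and outer Nme1 windows and 17 of the 30 in the Atic window. All 6 genes with the motif were among the genes that fell (below), where they made up 26.1% of the 23 with a promoter; the other 8 promoters held no match. The same share was 13.2% over all tested genes that fell, 11.6% over those that rose and 10.6% over those not past the threshold. The split between the 23 genes that fell and the other 8 rests on few promoters and on falls known beforehand. It was not tested. A match describes the letters of the window and shows no binding.

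The full 250 bases before the start are given for Tyms and Dtymk, which encode consecutive steps to dTDP and whose windows hold no annotated untranslated region. They lie at chr5:30073626-30073875 (minus strand) and chr1:93801935-93802184 (minus strand), with the E-box in capitals.
Tyms: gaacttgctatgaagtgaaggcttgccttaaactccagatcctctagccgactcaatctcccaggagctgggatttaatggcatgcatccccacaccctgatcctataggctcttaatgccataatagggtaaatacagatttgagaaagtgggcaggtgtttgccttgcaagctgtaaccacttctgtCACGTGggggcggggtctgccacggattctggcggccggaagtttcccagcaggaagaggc
Dtymk: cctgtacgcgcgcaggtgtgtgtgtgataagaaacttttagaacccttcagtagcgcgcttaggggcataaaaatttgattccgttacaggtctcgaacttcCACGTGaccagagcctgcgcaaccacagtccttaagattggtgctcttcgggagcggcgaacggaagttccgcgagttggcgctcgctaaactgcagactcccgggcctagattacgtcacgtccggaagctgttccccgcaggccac

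Another 2 motifs were searched on both strands. CCAAT, the core of the NF-Y site, was in 10 of the 31 promoters (32.3%) and in 42.8% of tested genes with a promoter. It was in 9 of the 23 promoters of genes that fell (39.1%) and in 1 of the other 8 (12.5%). The share over all tested genes that fell was 44.4%. The E2F-like strings TTTGGCGC and TTTCCCGC were in 2 promoters, those of Ppat and Prps2 (6.45%), and in 3.33% of tested genes with a promoter. Ppat and Prps2 fell, giving 8.70% of the 23 promoters of genes that fell and 0 of the other 8, with 4.56% over all tested genes that fell. For each motif searched, the share was higher among the genes that fell than among the others, which had only 8 promoters. That difference was not tested. For CCAAT the share among the genes that fell (39.1%) lay below that of tested genes with a promoter (42.8%).

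The only values were those of the authors' own comparison, with no values per sample, so a level in each sample cannot be shown. For each gene the authors' deposited table gives a base mean (normalised reads averaged over libraries), the log2 fold change and its standard error (SE), and the adjusted p-value; a gene was called past the threshold at an adjusted p-value under 0.05. Riok2, the targeted gene, had a log2 fold change of -3.60 ± 0.20 (SE) per the authors' deposited table, and folds are read as OHT over EtOH because of that sign. The background of change was wide: of the 13814 genes with a test result, 48.9% passed per the authors' deposited table, 25.5% higher and 23.4% lower. The 6 most frequent of the smallest base means, shared by 1337 genes, were taken to be single reads in the 6 libraries. The number of libraries was thus assumed, and the size factors were computed with it. The sign of the folds of these genes gave the side of each library. On the OHT side, the library with a size factor of 0.697 held the only read of 245 genes, or 351 per unit of size factor, against 168 to 211 in the other 5 libraries. That library stood apart and cannot be matched to a sample name, and its part in the values below was not tested. A fold without a p-value was listed for 51 genes of the authors' deposited table, and none of them was a nucleotide synthesis gene. Whether replicates came from separate cultures is not in the labels; the p-values thus reflect only the spread of these samples, which may be technical. In bulk RNA, fewer cells of a type and less RNA per cell cannot be told apart.

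Nucleotide synthesis genes were mostly lower in OHT. By the calls of the authors' deposited table, 25 of the 34 fell, 1 rose and 8 did not pass the threshold, beside 23.4% lower and 25.5% higher over all tested genes. Of the 9888 tested genes whose base mean reached 100, as did those of all 34, 2969 were lower and 2892 higher. Their median log2 fold change was -0.79, against 0.05 for all tested genes and -0.02 for those whose base mean reached 100. The falls ranged from -1.62 (Impdh2) to -0.46 (Rrm2), with a median of -1.08. In 14 of the 25 the point estimate was at or below -1. With a call, 7.3% of all tested genes and 7.98% of those whose base mean reached 100 showed that change. Base means of the 34 ran from 598 to 8756 normalised reads, and their median SE of 0.15 was below that of tested genes whose base mean reached 100, at 0.18.

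**Figure D1:**
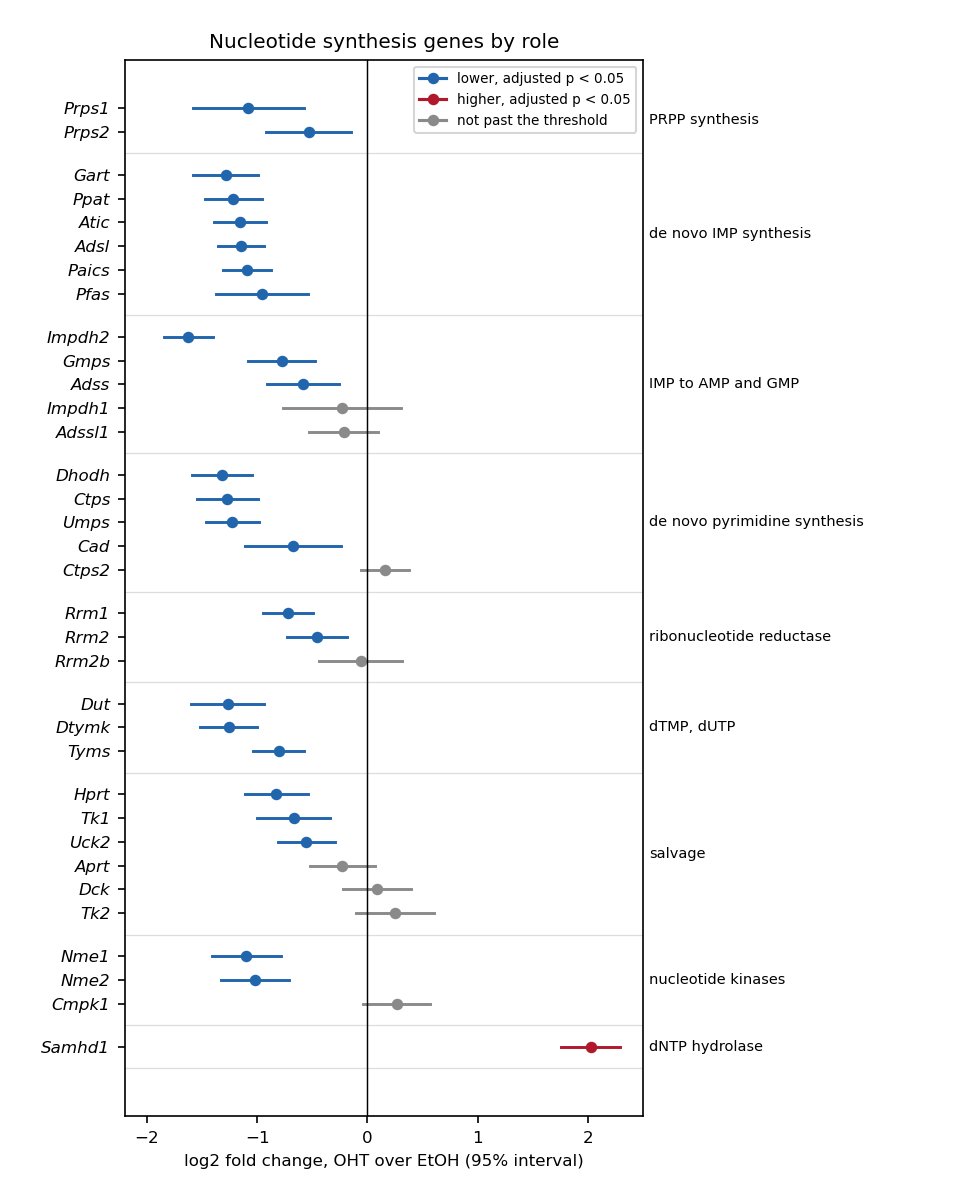
Log2 fold change of OHT over EtOH for the 34 genes, grouped by role, with points for the authors' estimates and lines for 95% intervals from their standard errors. Blue genes fell, the red gene rose and grey genes did not pass the threshold of 0.05 on the adjusted p-value; the 6 genes of IMP synthesis lie between -1.29 and -0.95.

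**Figure D2:**
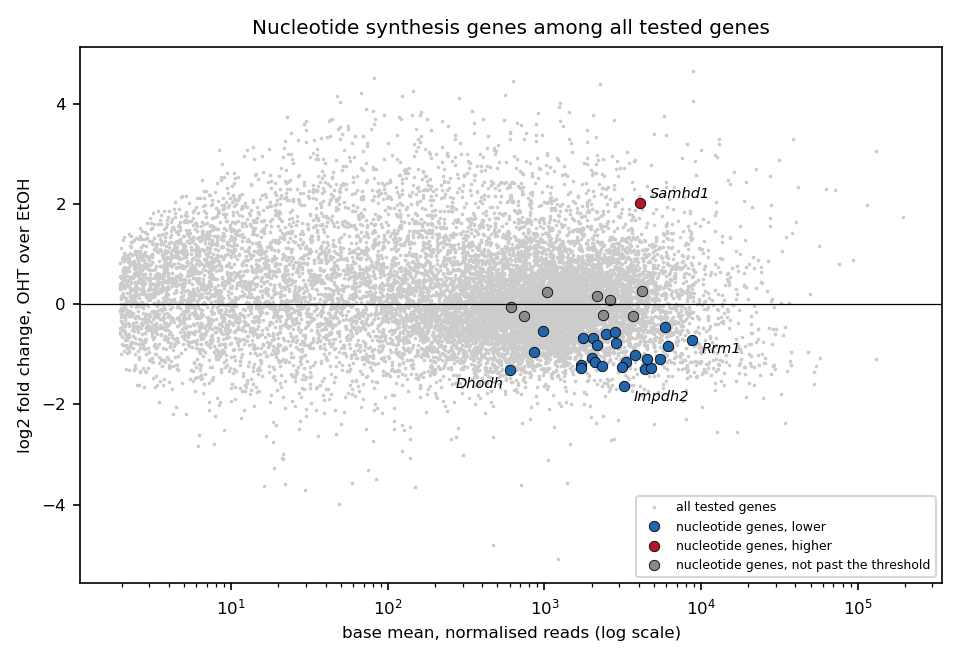
Base mean in normalised reads (log axis) against log2 fold change for the 13814 tested genes (pale grey), with the 34 nucleotide synthesis genes in colour. The genes that fell sit in the lower part of the cloud at base means from 598 to 8756, and Samhd1 stands alone above at 2.02.

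PRPP synthetase makes the activated ribose used by both ring systems. In the authors' deposited table Prps1 fell by 1.08 ± 0.26 on the log2 scale (SE, adjusted p = 1.04e-04), to 47.3% of the EtOH level with a 95% interval of 33.3 to 67.0%. Prps2, the second synthetase gene, stood at -0.53 ± 0.19 (adjusted p = 0.0146) per the authors' deposited table, the weakest adjusted p among the genes that fell. Both genes are on the X chromosome, as are Hprt and Ctps2.

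All 6 genes for the assembly of IMP fell, within a narrow band. In order of the pathway the log2 fold changes of the authors' deposited table were -1.22 ± 0.13 (SE) for Ppat, the committing amidotransferase, -1.29 ± 0.15 for the trifunctional Gart and -0.95 ± 0.21 for Pfas. For the later steps the authors' deposited table gave -1.09 ± 0.11 for the bifunctional Paics, -1.15 ± 0.11 for adenylosuccinate lyase, Adsl, and -1.16 ± 0.12 for Atic, which closes the ring. Their adjusted p-values in the authors' deposited table ran from 1.88e-25 (Adsl) to 3.17e-05 (Pfas). The 95% intervals of the 6 genes overlapped one another. Ppat and Paics, which start head to head on chromosome 5, were at 43.0% (35.9 to 51.4%) and 46.9% (40.3 to 54.6%) of the EtOH level by the folds of the authors' deposited table. Their gene models overlap by 272 bases. With strand use and the handling of overlaps in counting not given in the sources used here, how reads from those bases were assigned is unknown.

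Base means and folds together imply a level for each group, taken as the mean that 3 samples against 3 would give; these are approximate and have no error of their own. From the authors' deposited table, the implied level of Paics was 7435 normalised reads in EtOH and 3487 in OHT. Gart stood at 6205 and 2545 and Atic at 4602 and 2063, computed in the same way from the authors' deposited table. By point estimate all 3 transcripts were more than halved, but their 95% intervals did not leave out a smaller fall. The upper limits were 54.6% of the EtOH level for Paics, 50.3% for Gart and 52.7% for Atic.

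**Figure D3:**
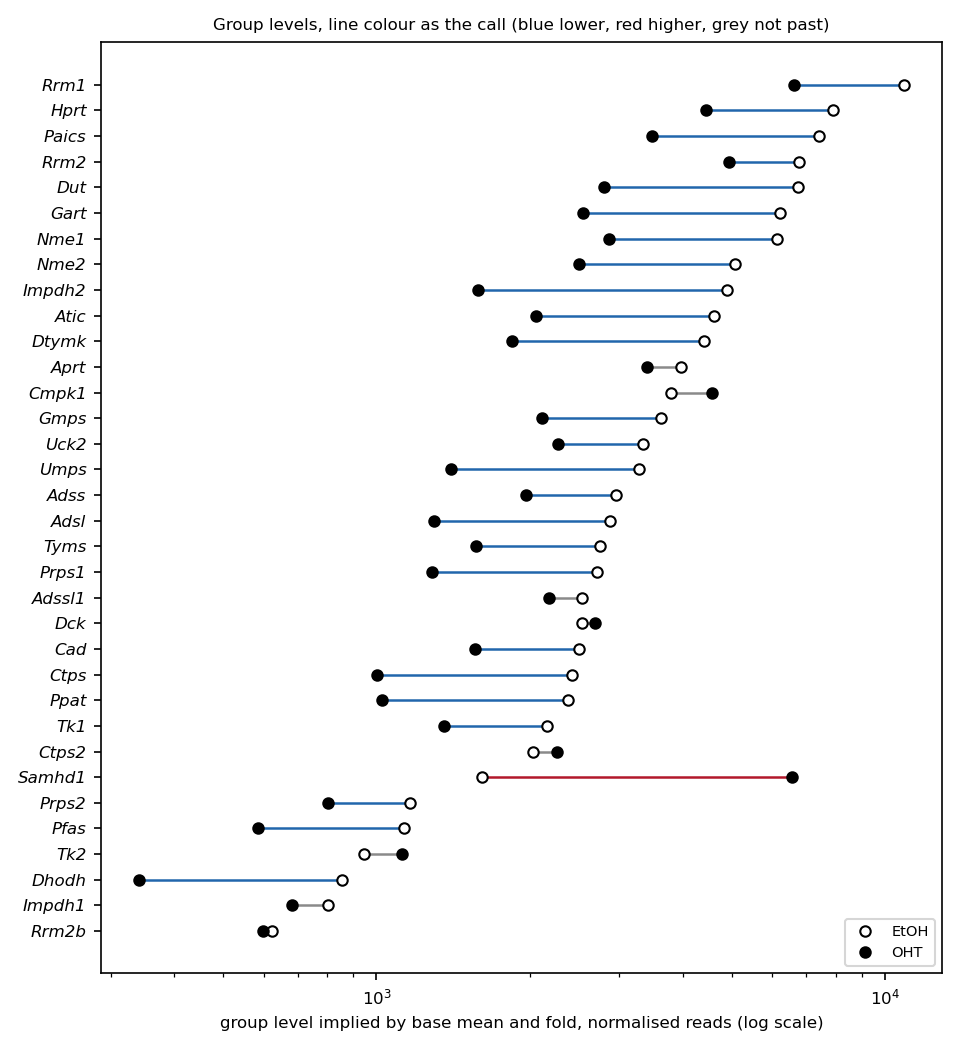
Group levels implied by the authors' base mean and fold for each gene, in normalised reads on a log axis, with open circles for EtOH and filled circles for OHT. Levels are not corrected for gene length, so only the 2 circles of 1 gene compare; Impdh2 goes from 4887 to 1585 and Samhd1 from 1613 to 6560.

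Of the 5 genes listed only for turning IMP into AMP and GMP, 3 fell and 2 did not pass. Adsl (-1.15 ± 0.11), counted above with IMP assembly, also acts on the adenine branch. IMP dehydrogenase is the rate-limiting step to guanine nucleotides, and its proliferation-associated isoform Impdh2 had the steepest fall of the 34 genes, at -1.62 ± 0.11 (SE, adjusted p = 7.51e-45) per the authors' deposited table. That put Impdh2 at 32.4% of the EtOH level (95% interval 27.8 to 37.8%), and it ranked 50 by p-value among all genes. The other isoform, Impdh1, stood at -0.23 ± 0.27 (adjusted p = 0.51) per the authors' deposited table. GMP synthetase, Gmps, fell by 0.78 ± 0.16 on the log2 scale (adjusted p = 2.99e-06) per the authors' deposited table. On the adenine branch Adss fell by 0.59 ± 0.17 on the log2 scale (adjusted p = 0.00136) per the authors' deposited table. Adssl1, the isozyme best known from muscle, stood at -0.22 ± 0.16 (adjusted p = 0.26) per the authors' deposited table. GENCODE M21 names a processed pseudogene of Impdh2 on chromosome 8, and how reads were shared with it was not tested. Impdh2 also overlaps the protein-coding gene Ndufaf3 on the other strand, and how reads from that overlap were assigned is unknown.

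Of the 5 pyrimidine genes 4 fell. Cad, which encodes the trifunctional enzyme that starts the ring, had -0.67 ± 0.22 (SE, adjusted p = 0.00593) per the authors' deposited table. The next steps lay lower: Dhodh, the mitochondrial dehydrogenase and a drug target in myeloid leukaemia, had -1.32 ± 0.14 (adjusted p = 4.45e-20), and Umps, which makes UMP, had -1.23 ± 0.12 (adjusted p = 3.59e-22) per the authors' deposited table. CTP synthase genes parted: Ctps had -1.27 ± 0.14 (adjusted p = 5.86e-18) and Ctps2 0.16 ± 0.11 (adjusted p = 0.25) per the authors' deposited table. By the folds of the authors' deposited table Dhodh was at 40.0% of EtOH (33.2 to 48.3%) and Cad at 62.6% (46.4 to 84.5%), intervals that overlapped slightly. With the whole 95% interval below a halving, Impdh2 and Dhodh were the 2 such genes among the 34.

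Of the 6 genes for deoxynucleotides 5 fell, and Rrm2b did not pass. Ribonucleotide reductase joins the large subunit Rrm1 with a small subunit, either Rrm2, which is made in S phase, or the p53-induced Rrm2b. In the authors' deposited table Rrm1 had -0.72 ± 0.12 (SE, adjusted p = 6.98e-09), Rrm2 -0.46 ± 0.14 (adjusted p = 0.00323) and Rrm2b -0.06 ± 0.19 (adjusted p = 0.82). The 95% interval for Rrm2b, from -0.44 to 0.32, holds no doubling or halving of this p53 target by the errors of the authors' deposited table. Thymidylate synthase, Tyms, had -0.81 ± 0.12 (adjusted p = 4.38e-11) per the authors' deposited table, and its processed pseudogene on chromosome 10 could share reads with it. The thymidylate kinase gene Dtymk had -1.26 ± 0.13 (adjusted p = 5.55e-20) and Dut, whose product clears dUTP and supplies dUMP, -1.27 ± 0.17 (adjusted p = 1.25e-12) per the authors' deposited table. The 95% interval of Dtymk, from -1.51 to -0.998, did not overlap that of Rrm1, from -0.95 to -0.49, while that of Dut, from -1.60 to -0.93, did, by the errors of the authors' deposited table.

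Salvage genes divided evenly: 3 of 6 fell and 3 did not pass. Hprt, which recovers hypoxanthine and guanine, had -0.83 ± 0.15 (SE, adjusted p = 1.23e-07) per the authors' deposited table. Cytosolic thymidine kinase, Tk1, had -0.67 ± 0.17 (adjusted p = 2.61e-04) and the uridine and cytidine kinase Uck2 -0.55 ± 0.13 (adjusted p = 1.14e-04) per the authors' deposited table. Tk1 overlaps the protein-coding gene models Afmid and Gm20708 on the other strand, and how reads from the overlap were assigned is unknown. Aprt, which recovers adenine, stood at -0.23 ± 0.15 (adjusted p = 0.21) per the authors' deposited table. The mitochondrial thymidine kinase Tk2 (0.25 ± 0.18, adjusted p = 0.26) and deoxycytidine kinase, Dck (0.09 ± 0.16, adjusted p = 0.68), which activates cytarabine, did not pass per the authors' deposited table. The 95% interval for Dck ran from 85.8 to 131% of the EtOH level, from the errors of the authors' deposited table. The salvage median of -0.39 lay beside -1.15 for IMP assembly and -1.23 for pyrimidine synthesis, a difference between roles that was not tested.

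Among kinases that finish the nucleotides, the nucleoside diphosphate kinase genes Nme1 (-1.10 ± 0.16 SE, adjusted p = 1.03e-10) and Nme2 (-1.02 ± 0.16, adjusted p = 1.15e-09) fell per the authors' deposited table. They are neighbours on chromosome 11, are close in sequence and share the readthrough gene model Gm20390, so the split of reads between them is uncertain. UMP and CMP kinase, Cmpk1, stood at 0.27 ± 0.15 (adjusted p = 0.15) per the authors' deposited table.

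Samhd1, the 1 gene that rose, encodes the enzyme that hydrolyses dNTPs and is known for restricting viruses in myeloid cells and for inactivating cytarabine triphosphate. It rose by 2.02 ± 0.14 on the log2 scale (SE, adjusted p = 6.67e-47) per the authors' deposited table, a 4.07-fold level with a 95% interval of 3.38 to 4.90. Implied levels from the authors' deposited table were 1613 normalised reads in EtOH and 6560 in OHT. By p-value it ranked 42 among all genes, ahead of every other gene of the 34. Samhd1 is also a gene of mature myeloid cells. Of 14 markers of maturing neutrophils and macrophages 14 rose per the authors' deposited table, beside 25.5% higher over all tested genes. These markers had a median log2 fold change of 2.95, S100a9, Lyz2, S100a8 and Camp being the most abundant. Their implied sum of levels was 216449 in EtOH and 993583 in OHT. Of 15 leukaemia and myeloid markers, 5 were higher and 7 lower per the authors' deposited table. The part of maturation in the Samhd1 value and in the falls was not tested.

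The 8 genes that did not pass had log2 fold changes from -0.23 to 0.27 and adjusted p-values from 0.15 to 0.82 per the authors' deposited table. Their 95% intervals, which together spanned -0.77 to 0.60, left room for moderate change in either direction and for no halving or doubling. A p that misses the threshold does not show that these genes did not differ.

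For 7 reactions the list holds 2 genes with the same activity, and their folds were compared directly. The 95% interval of each difference was set wide enough to hold at any correlation between the errors of the 2 genes, since both come from the same libraries. In 3 of the 7 pairs the interval left out 0. Ctps was lower than Ctps2 by a log2 difference of -1.43 (-1.93 to -0.93), Impdh2 than Impdh1 by -1.39 (-2.15 to -0.63) and Tk1 than Tk2 by -0.92 (-1.60 to -0.24), all from folds of the authors' deposited table. Differences were -0.55 (-1.43 to 0.34) for Prps1 and Prps2, -0.37 (-1.01 to 0.27) for Adss and Adssl1 and -0.40 (-1.05 to 0.26) for Rrm2 and Rrm2b. Nme1 and Nme2 differed by -0.08 (-0.71 to 0.54). These 4 intervals include 0 and also differences of over 0.5 in size, so the pairs are not shown to move alike.

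**Figure D4:**
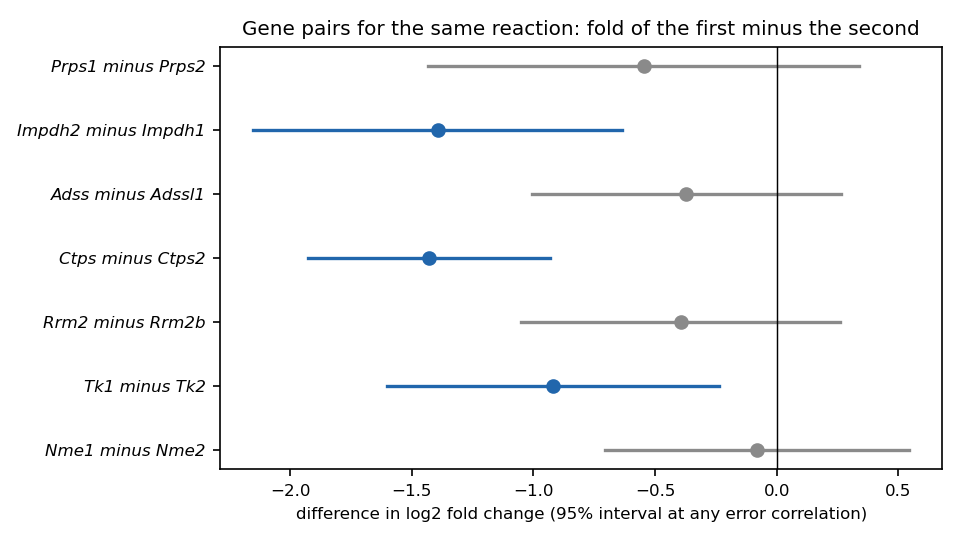
Difference in log2 fold change within 7 pairs of genes for the same reaction, first gene minus second, with 95% intervals that hold at any correlation of errors. Blue intervals (Impdh2, Ctps and Tk1 against their partners) leave out 0 and grey ones include it.

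Levels per kilobase of annotated exon allowed the 2 genes of a pair to be set side by side. On the implied levels per kilobase, Impdh2 stood 6.52 times above Impdh1 in EtOH and 2.48 times above it in OHT. For CTP synthase the order turned, with Ctps at 1.70 times Ctps2 in EtOH and 0.631 times in OHT. Thymidine kinase transcripts went from a Tk1 to Tk2 ratio of 1.57 to 0.832. Rrm2 remained far above Rrm2b, at 35.8 and 27.2 times. Adss stood below Adssl1 in both groups, at 0.537 times in EtOH and 0.415 times in OHT. These ratios use all annotated exons of GENCODE M21, carry no error and depend on which isoforms the cells use.

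Genes around the pathway did not share one direction. Of 6 one-carbon genes, which supply formyl groups for purines and the methyl group of thymidylate, 6 fell per the authors' deposited table, with a median of -1.44. The most abundant were Shmt2 (-2.39 ± 0.15 SE), Mthfd2 (-1.82 ± 0.16), Mthfd1l (-1.49 ± 0.15) and Mthfd1 (-1.16 ± 0.16) per the authors' deposited table. Of 25 tested genes for other kinases, salvage and interconversion, 9 fell and 4 rose per the authors' deposited table, with a median of -0.26. Over all tested genes 23.4% were lower and 25.5% higher. Among those with the highest base means were Gmpr2 (-0.18 ± 0.12, adjusted p = 0.23), Itpa, which removes inosine triphosphate (-0.76 ± 0.14, adjusted p = 2.2e-07), and Nme6 (-0.16 ± 0.16, adjusted p = 0.44) per the authors' deposited table. Uckl1, Gmpr, Cmpk2 and Ak1, chosen for naming once their values had been seen, were the 4 rises, from 0.36 ± 0.16 to 1.29 ± 0.43 per the authors' deposited table. The 9 falls ran from -2.48 ± 0.50 (Ak4) to -0.54 ± 0.14 (Prpsap1) per the authors' deposited table, both genes likewise named after their values were seen.

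Of 15 tested breakdown genes, 6 rose, 4 fell and 5 did not pass per the authors' deposited table, with a median of 0.13, beside 25.5% higher and 23.4% lower over all tested genes. Whether these shares differ from those of the synthesis genes was not tested. By base mean the leading genes were guanine deaminase, Gda (0.72 ± 0.13 SE, adjusted p = 2.9e-07), purine nucleoside phosphorylase, Pnp (-0.05 ± 0.13, adjusted p = 0.76), AMP deaminase, Ampd2 (-0.39 ± 0.16, adjusted p = 0.028), and the nucleotidase Nt5c2 (0.44 ± 0.14, adjusted p = 0.0047) per the authors' deposited table. Named after their values were seen, Nt5e, which encodes the ectonucleotidase CD73 (2.25 ± 0.20), Ampd3 (2.09 ± 0.28), xanthine dehydrogenase, Xdh (2.06 ± 0.18), and uridine phosphorylase, Upp1 (2.02 ± 0.67), rose by amounts near that of Samhd1 per the authors' deposited table. The other falls were Nt5c3b (-1.41 ± 0.22), Nt5m (-0.65 ± 0.19) and Nt5c (-0.52 ± 0.14), also named after their values were seen, per the authors' deposited table. Nucleoside transporters gave 2 higher and 2 lower of 6 tested, beside 25.5% higher and 23.4% lower over all tested genes. Slc29a3 (1.07 ± 0.17) and Slc29a4 (2.43 ± 0.58, named after its value was seen) rose, and Slc29a1 (-0.37 ± 0.12) and Slc29a2 (-1.41 ± 0.27) fell per the authors' deposited table, where Slc28a2 stood at 0.09 ± 0.26 (adjusted p = 0.80).

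**Figure D5:**
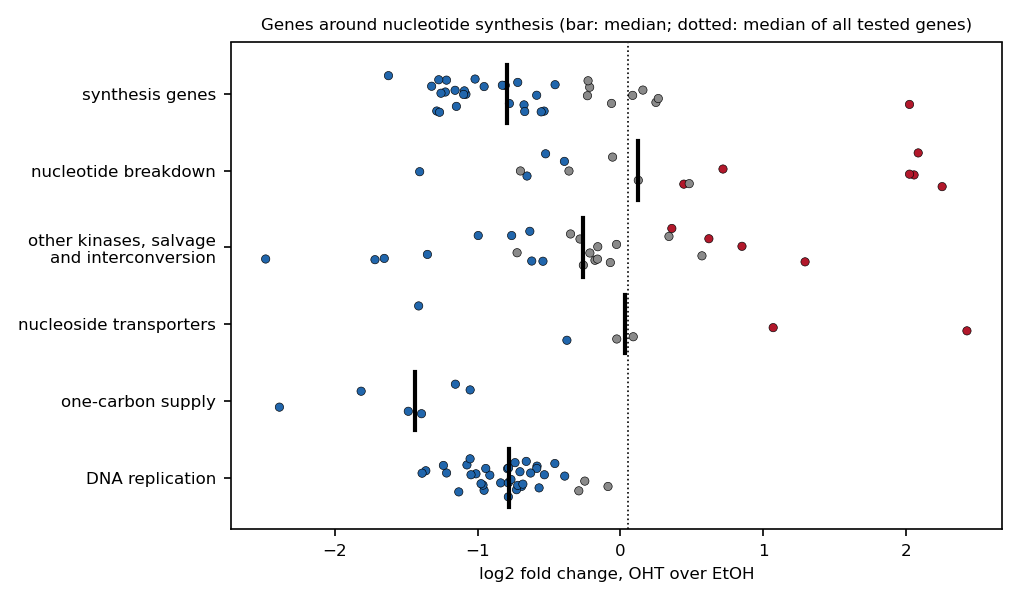
Log2 fold change of each tested gene in the nucleotide synthesis list and in 5 lists around it, with a black bar for the median of each list and a dotted line for the median of all tested genes, 0.05. Blue points fell, red rose and grey did not pass; the synthesis and DNA replication medians lie at -0.79 and -0.78, and the breakdown median at 0.13.

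DNA replication genes, which use the deoxynucleotides, gave 34 lower and 0 higher of 37 per the authors' deposited table. Over all tested genes 23.4% were lower and 25.5% higher. By the authors' DESeq2 test 0 replication genes were also higher at an unadjusted p under 0.05. The replication genes had a median of -0.78 beside -0.79 for nucleotide synthesis. The most abundant of them were Mcm6 (-0.95 ± 0.09 SE), Mcm5 (-0.70 ± 0.15), Pcna (-0.57 ± 0.14) and Mcm3 (-0.84 ± 0.14) per the authors' deposited table. Myc had -1.63 ± 0.11 (adjusted p = 1.11e-43) per the authors' deposited table. The part of Myc in the falls was not tested.

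The labelled cell type was checked on marker lists, read beside 23.4% lower and 25.5% higher over all tested genes. All 15 leukaemia and myeloid markers had a test result, with 7 lower and 5 higher per the authors' deposited table, led in base mean by Elane, Mpo, Prtn3 and Itgam. Of 11 lymphoid markers 8 had base means under 2 per the authors' deposited table, with Cd3e, Cd8a, Ms4a1 and Pax5 among those at 0, while of the 3 tested Cd79b (base mean 149) fell and Cd3d (16.01) and Cd79a (9.49) rose. The globin genes Hba-a1 and Hbb-bs were at 0, and of 7 tested erythroid and megakaryocytic markers, the most abundant being Itga2b, Pf4, Gata1 and Gp1ba, 1 rose (Gp1ba) per the authors' deposited table. Of 8 stromal and endothelial markers, 4 had base means under 2, Acta2 and Col1a1 rose, and Pecam1 and Pdgfrb did not pass per the authors' deposited table. Mast cell and basophil markers were present, the most abundant of those tested being Cpa3 (base mean 13267), Hdc, Fcer1a and Gata2, with 0 of 5 tested past the threshold by the authors' DESeq2 test, 0 at an unadjusted p under 0.05, and adjusted p-values from 0.32 to 0.47 per the authors' deposited table. The 5 log2 fold changes were all above 0, from 0.53 to 0.91 with a median of 0.70, and the implied sum of levels was 13873 in EtOH and 22145 in OHT, from the authors' deposited table. Mcpt8 (base mean 3144), named after its value was seen, had a log2 fold change of 0.50 ± 0.71 with no p-value per the authors' deposited table. The median SE of the 5, 0.64, was wide beside 0.15 for the nucleotide synthesis genes. The part of these cells in the values above was not tested.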

How the data were processed

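Total RNA was made into libraries with a TruSeq kit, per the labels' protocols. The submitters' processing notes name STAR 2.7.2b, Trimmomatic 0.38.0, HTSeq 0.9.1, DESeq2 and DESeq, and build mm10. Not given in the sources used here were annotation, strand and other counting options. The authors deposited 1 comparison table: the base mean (a signal: the library average of normalised reads), the log2 fold change with a log2 standard error, the Wald score, and p-values before and after adjustment. As a check, score times standard error gave the fold (scores within 7.56e-08), and Benjamini-Hochberg adjustment over 13814 genes gave the adjusted values (within 2.33e-07). Standard errors reach at most 0.747, so the deposited log2 folds are taken to be pulled towards 0. Base means summed to 20307732. The table holds no values per sample, so calls are the authors' DESeq2 test at an adjusted p under 0.05, and no test over samples was made.

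From the table, 95% intervals, implied group levels, differences within gene pairs and calls centred on the median of genes whose base mean reached 100 were computed in Python 3.11.15 (numpy 2.4.6, pandas 2.3.3, scipy 1.17.1). Of these, only the centring was tested on simulated data. GENCODE M21 (GRCm38, equal to mm10) gave positions and exon lengths, and promoters came from RefSeq (GRCm38.p6). Of the 34 genes 17 overlap another annotated gene. Genes and lists were chosen with earlier results of these data known. Named genes are all 34, Riok2, Myc and the 4 tested genes with the highest base means in each list around the pathway and of markers; others are named where counts are small, as said beside them. Some genes that this rule would name are not reported here.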

Additional observations from a re-analysis of the deposited data

How the results depend on the processing

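Of the nucleotide synthesis genes, 25 were lower and 1 higher at an adjusted p under 0.05. Requiring an absolute log2 fold of at least 1 left 14 lower and 1 higher. The breakdown, other kinase and salvage, transporter and one-carbon lists, pooled to 52 tested genes, gave 21 lower (6 of them one-carbon genes) and 12 higher. Beside these, 23.4% of all tested genes were lower and 25.5% higher. With the minimum fold of 1 the pooled lists gave 12 lower and 7 higher. Thresholds of 0.01 and 0.1, a minimum fold of 0.5, a base mean of at least 100, centring (a shift of -0.02) and leaving out standard errors above 0.5 gave 24 or 25 lower and 1 higher among the synthesis genes, and centring kept the call and direction of all 34. No paired analysis was possible because the table holds no values per sample. For the same reason leaving out replicates, edgeR, other size factors and a count filter were not run. Depth per sample is unknown here, and implied levels have no error.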
